A study of Mus musculus with 36 samples.

Results

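The albumin gene family of the mouse lies on chromosome 5, where Alb, Afp and Afm follow each other in the same orientation and Gc lies about a megabase away on the opposite strand. These 4 genes, Alb, Afp, Afm and Gc, of 21410 autosomal protein-coding genes, are described here by the methylation of their CpG dinucleotides in liver. The members were taken by name, and each region ran from 10 kb before a gene's start to 10 kb past its end. The regions held 1363 of 18887127 autosomal CpGs in the count tables. In fixed windows of 500 bp, 199 of 2580465 tested windows lay in them, of which 41 belonged to Alb, 48 to Afp, 59 to Afm and 51 to Gc. Windows outside the 4 genes were assigned to the nearest of them. Whether such a window lies in or at the start of another gene was not checked. A window was tested if it held 3 or more CpGs and every animal had 30 or more reads in it.

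Liver DNA came from 24 mice, and its methylation was read by whole-genome bisulfite sequencing, in which an unmethylated cytosine is read as a thymine and a methylated one is not. The mice were C57BL/6N (B6) and C3H/HeN (C3) parents and the F1 animals of the reciprocal crosses, B6C3F1 from a B6 dam and a C3 sire and C3B6F1 from a C3 dam and a B6 sire. The 8 groups of 3 animals were B6 sires, B6 dams, C3 sires, C3 dams, and the sons and daughters of each cross. All were killed at 20 weeks of age, and none carried a transgene or received a treatment per the labels. The parents had been mated at week 10 and the litters weaned at week 16, so that every dam had borne and nursed a litter and every F1 daughter was virgin. Age is therefore shared by all groups, while parental status goes with generation and, in the parents, with inbred genotype. In the parents, sex also goes with having borne and nursed a litter, so a difference between dams and sires cannot be assigned to either. DNA came from whole liver, so a level between the extremes cannot tell a share of cells from a share of alleles. The series holds no RNA from these animals, and no expression level is given here.

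The 4 proteins share a fold of repeated domains held by disulfide bonds and are secreted into plasma by hepatocytes. Albumin (Alb) carries fatty acids, hormones and drugs and sets the oncotic pressure of plasma, alpha-fetoprotein (Afp) takes its place in the fetus and is silenced after birth, afamin (Afm) binds vitamin E and Wnt proteins, and the vitamin D-binding protein (Gc) carries vitamin D metabolites and scavenges actin. Cytosine methylation is usually dense across the genome and low at active promoters and enhancers, and liver-restricted genes with few CpGs at their start sites are the classic case in which low methylation is found in the tissue that uses the gene.

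The start sites of all 4 genes were poor in CpGs. The 250 bases before each start are shown because they hold the CpGs next to the point of initiation. They were read from mm9 on the strand of the gene, 5′ to 3′, and capitals mark the CpGs.
Alb, chr5:90889665-90889914, plus strand: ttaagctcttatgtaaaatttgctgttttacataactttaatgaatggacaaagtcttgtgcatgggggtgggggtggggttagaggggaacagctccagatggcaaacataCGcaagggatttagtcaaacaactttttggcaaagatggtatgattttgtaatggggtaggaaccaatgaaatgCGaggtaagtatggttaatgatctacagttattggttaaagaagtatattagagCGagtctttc
Afp, chr5:90919490-90919739, plus strand: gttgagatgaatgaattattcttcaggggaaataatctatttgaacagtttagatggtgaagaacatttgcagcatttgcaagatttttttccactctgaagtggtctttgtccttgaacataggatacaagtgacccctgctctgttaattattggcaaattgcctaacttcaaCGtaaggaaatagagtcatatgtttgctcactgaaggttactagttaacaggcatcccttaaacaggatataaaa
Afm, chr5:90947708-90947957, plus strand: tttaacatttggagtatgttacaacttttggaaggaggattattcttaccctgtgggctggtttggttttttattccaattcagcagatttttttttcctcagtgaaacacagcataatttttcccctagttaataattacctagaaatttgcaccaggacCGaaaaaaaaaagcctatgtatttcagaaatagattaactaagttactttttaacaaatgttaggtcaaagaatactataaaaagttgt
Gc, chr5:89886791-89887040, minus strand: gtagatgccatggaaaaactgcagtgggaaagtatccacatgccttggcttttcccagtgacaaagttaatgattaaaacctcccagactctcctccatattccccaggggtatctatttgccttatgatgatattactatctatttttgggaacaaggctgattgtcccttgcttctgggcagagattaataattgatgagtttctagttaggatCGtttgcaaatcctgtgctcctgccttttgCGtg
The Alb stretch held 3 CpGs, the Gc stretch 2, and the Afp and Afm stretches 1 each. Motifs were searched on both strands of these stretches and of the same length before 21410 genes. CCAAT was in Alb, Afp and Afm and in 34.5% of all promoters, and TATAAA was in Afp and Afm and in 12.3% of all. TGTTTAC (FOXA; 2.62% of all), TTGCGCAA (C/EBP; 0.187%) and TTGGC followed after 5 letters by GCCAA (NF1; 0.0280%) were in none of the 4 stretches.

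Gc (ENSMUSG00000035540.7) spans chr5:89846549-89886790 on the minus strand with 13 exons. Alb (ENSMUSG00000029368.9) spans chr5:90889915-90905629, Afp (ENSMUSG00000054932.3) chr5:90919740-90937933 and Afm (ENSMUSG00000029369.10) chr5:90947958-90982569, all on the plus strand and with 15 exons each. Single-base differences between the strains (SNVs) were uneven among them, with 0 inside Alb, 84 in Afp, 10 in Afm and 37 in Gc. The regions together held 1.05 SNVs per kb, against 0.893 on chromosome 5 as a whole. Depth in the regions was 15.5 to 27.7 reads per CpG and animal, against 19.4 to 32.8 over all autosomal CpGs, and a tested window had a median of 116 reads in an animal. The tables listed 73.3% of the reference CpGs of the Gc region and 94.7% of those around Alb, Afp and Afm. Inside Gc, 7.552 kb between 89856319 and 89863871 held 109 reference CpGs of which none is listed, so methylation there was not analysed. By the study's methods the animals came as 3 families of each cross, each a sire, a dam, a son and a daughter, so parents and their offspring stand in different groups. The labels do not say which animals form a family, and the tests treat all animals as independent.

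Methylation along the cluster was low over most of Alb and around the start of Gc, and patchy elsewhere. Alb was below 50% in 24 of its 41 windows (58.5%), Gc in 18 of 51, Afm in 12 of 59 and Afp in 9 of 48, while 7.31% of all tested windows of the genome were that low. The longest low stretch belonged to Gc and ran for 15 kb from 4.2 kb before the start into intron 1 (chr5:89876001-89891000), with a mean of 22.2% ± 2.4 (SD, n = 24). Alb was low from its start through most of its length, over 12.5 kb (chr5:90889501-90902000) at 29.6% ± 4.4, and again over 4.5 kb that pass its end (chr5:90903001-90907500) at 32.1% ± 3.2. Around the other 2 genes the low stretches were short. Afp had 2 kb in its exon 2 and intron 2 (chr5:90920501-90922500) at 25.8% ± 4.1 and 1 kb in its middle (chr5:90929501-90930500) at 26.4% ± 3.2, and Afm had 3 kb at its start (chr5:90947501-90950500) at 22.8% ± 4.1 and 3 kb beyond its end (chr5:90989501-90992500) at 24.2% ± 4.7. A low stretch was a run of windows with at least 2 CpGs below 50%, with gaps of at most 1500 bp, and is given as a description.

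At promoters, from 1000 bp before to 500 bp after the start, the order of the 4 genes was Gc, Alb, Afm and Afp. Gc was lowest at 17.8% ± 4.0 over the 24 animals (range 9.44 to 26.9). Alb was at 35.6% ± 7.1 (25.2 to 47.3) and Afm at 40.9% ± 5.3 (30.7 to 52.0). Afp stood apart at 84.4% ± 1.7 (80.2 to 87.2), and no animal's Afp promoter was as low as any animal's promoter of the other 3. Each neighbor in this order differed from the next within the same animals in a two-sided sign-flip permutation test: Alb minus Gc was 17.8 points, higher in 24 of 24 animals, and Afp minus Afm was 43.4 points in 24 of 24, both with p = 1e-05, the smallest the 100000 resamples can give. Afm minus Alb was 5.31 ± 6.25 points and positive in 19 of 24 animals (permutation p = 0.00042), and it was 0.386 points (p = 0.743) when each CpG rather than each read was given equal weight. Among 20586 promoters, whose median was 15.2%, these levels stood at percentiles 53.4 (Gc), 63.7 (Alb), 64.9 (Afm) and 89.3 (Afp).

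Gene bodies gave another order, Alb, Gc, Afp and Afm. From 500 bp after the start to the end of the gene, Alb was at 32.1% ± 4.0 (26.0 to 42.4), Gc at 50.1% ± 1.7 (47.0 to 53.3), Afp at 67.4% ± 2.0 (64.2 to 71.5) and Afm at 77.0% ± 0.92 (74.7 to 78.5). The ranges over animals did not overlap, and each step was seen in 24 of 24 animals (permutation p = 1e-05 for each). The median of 19840 gene bodies was 79.3%, and Alb was at percentile 4.68, Gc at 8.77, Afp at 19.9 and Afm at 40.8. So Afm combined the highest body of the 4 with a promoter near that of Alb, and Afp had the highest promoter. In every gene the part before the midpoint was lower than the part after it, at 27.0% and 37.7% in Alb, 66.2% and 69.9% in Afp, 71.6% and 80.4% in Afm, and 40.7% and 67.6% in Gc. Exons and introns were close in Alb (33.8% and 31.1%), Afp (66.1% and 68.3%) and Afm (79.0% and 75.9%), and Gc exons stood at 64.3% against 48.0% for its introns. Inside Gc, the low stretch around the start lies in exon 1 and intron 1. The part of position along the gene in this exon-intron difference was not tested. The 10 kb before Alb were at 84.4% ± 1.2 in contrast to the gene itself, and the 10 kb past Gc at 82.9% ± 1.5.

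**Figure D1:**
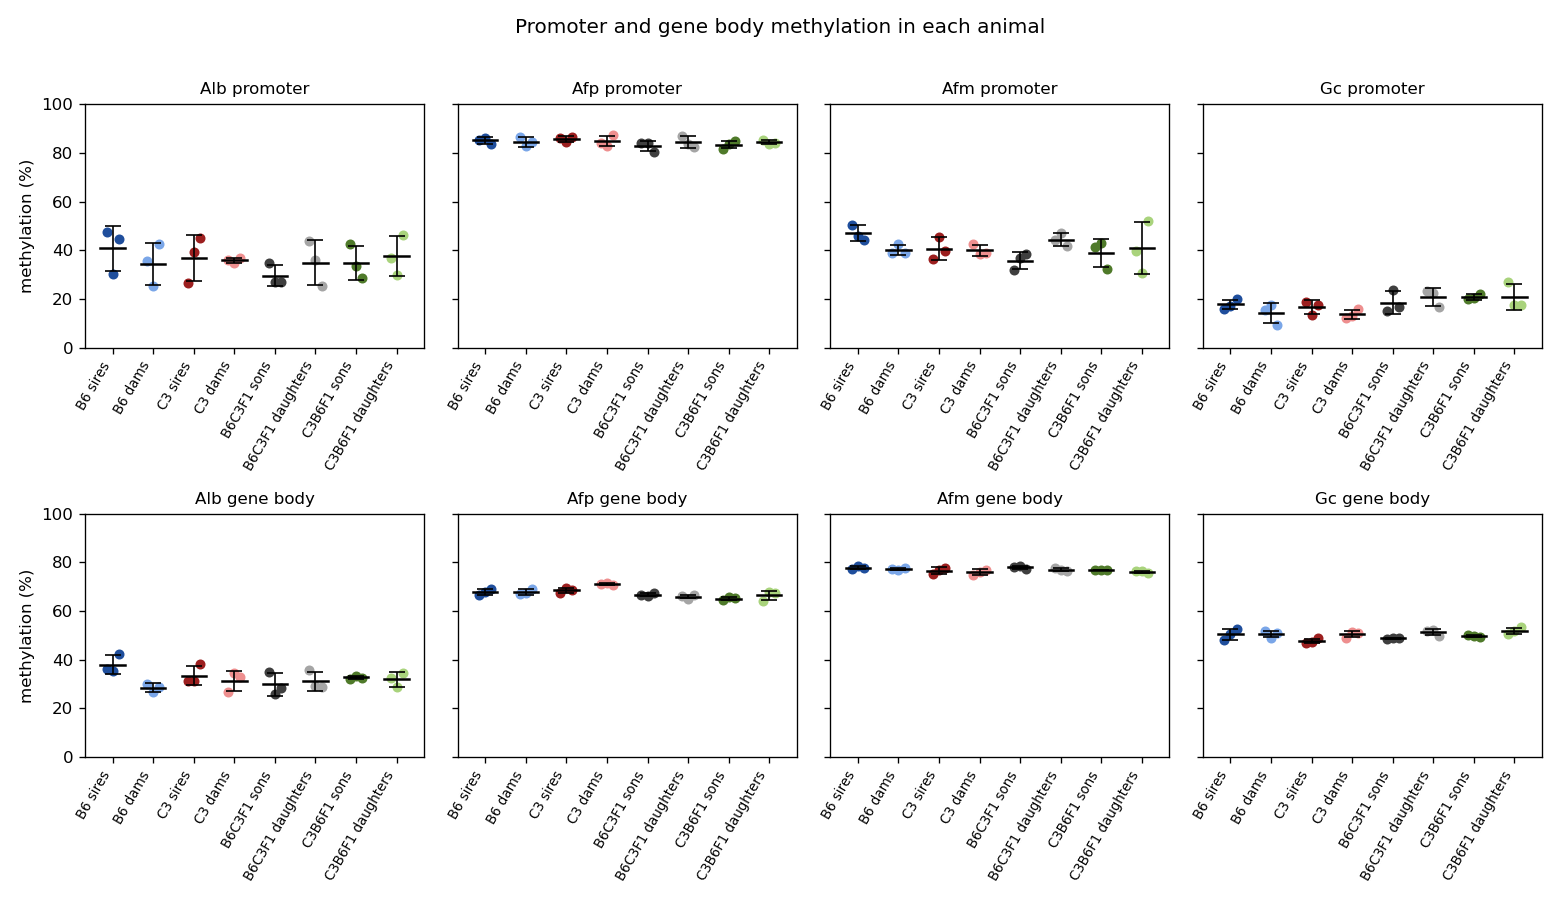
Percent methylation (y axis) of the promoters and gene bodies of Gc, Alb, Afm and Afp in each of the 24 animals, by group; points are animals, and lines show the mean and SD of 3. The Afp promoter lies between 80.2 and 87.2 in all animals, and the Alb body between 26.0 and 42.4.

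In the windows of 500 bp that hold the start sites, Gc was again lowest and Afp highest, and Afm and Alb lay within each other's spread. The Gc start-site window (6 CpGs) was at 16.4% ± 5.5, that of Afm (4 CpGs) at 24.4% ± 8.7, that of Alb (5 CpGs) at 26.6% ± 11.1 and that of Afp (7 CpGs) at 71% ± 3.6. The Alb window was the most variable among animals, from 7.84 to 43.6, with 44 reads in the animal with the fewest. The lowest window of each gene lay away from its start. In Gc it was in intron 1, 9.5 kb into the gene (chr5:89877001-89877500, 12.2% ± 3.9), in Alb beyond the end of the gene (chr5:90906501-90907000, 16.2% ± 4.3) and in Afm beyond its end too (chr5:90991501-90992000, 7.79% ± 3.2). In Afp it was in intron 7 (chr5:90929501-90930000), 10 kb into a gene with a methylated promoter, at 9.65% ± 3.6 with a range of 2.70 to 18.4.

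Genes with like values elsewhere in the genome were found by Euclidean distance over 16 values, the 8 group means of promoter and body, among 19430 genes. Nearest to Alb were Slc16a11, Slc25a22 and Naif1 (18.8 to 18.9 points), to Afp Notch1, Tmigd1 and Vmn1r45 (6.29 to 7.37), to Afm Gm10639, Igsf5 and Kif12 (10.0 to 10.6), and to Gc Prhoxnb, Cxcl14 and Cisd3 (10.0 to 10.5). None of the 4 members was among the nearest genes of another.

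B6 and C3 parents differed at 24 of the 199 windows at an adjusted p below 0.05 (12.1%), where 4.75% of all tested windows did. The calls were in Afm (11 of 59), Afp (7 of 48) and Gc (6 of 51), and in Alb there were 0 of 41, where 54 of all 199 windows had an unadjusted p below 0.05 (27.1%, against 16.8% of all tested windows). Afm was higher in B6 at 10 of its 11 windows, Gc was lower in B6 at 5 of its 6, and Afp had 4 higher and 3 lower. Of the 10 Afm windows, 4 are neighbors in a tandem repeat of 2000 bp, described below. Its reads cannot be placed with certainty and number 2.29 to 6.47 per CpG in an animal. These 4 windows are counted as separate calls in the totals given here. Over all windows, 1.68% were called as higher in B6. Leaving out single parents ended 10 of the 24 calls in at least 1 fit, 4 of them in Afp, 4 in Afm and 2 in Gc. Outside the genes these were the windows that start at 90991501 (lost in 11 of 12 fits), 90984001, 90939501 and 89842001 (7 each), 90944501 (6) and 89893001 (5), and those inside the genes are given with their values. With a difference of at least 20 percentage points as well, 3 windows remained (1.51%, against 0.436% of all windows), of which 2 were in Gc and 1 in Afp. The test was limma, fitted to the log2 ratio of methylated over unmethylated counts in all 24 animals, with Benjamini-Hochberg adjustment over all windows.

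Stretches of 300 bases of the 3 windows are shown on the plus strand of mm9, with the listed CpGs in capitals, since they hold most of the measured CpGs.
Gc intron 1, chr5:89876069-89876368: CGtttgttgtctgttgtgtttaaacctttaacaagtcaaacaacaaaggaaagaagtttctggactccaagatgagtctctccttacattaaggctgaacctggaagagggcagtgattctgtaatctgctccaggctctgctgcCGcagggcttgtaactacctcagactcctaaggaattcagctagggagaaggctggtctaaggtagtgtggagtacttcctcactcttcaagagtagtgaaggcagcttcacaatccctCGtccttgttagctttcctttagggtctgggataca
Gc exon 10, chr5:89864101-89864400: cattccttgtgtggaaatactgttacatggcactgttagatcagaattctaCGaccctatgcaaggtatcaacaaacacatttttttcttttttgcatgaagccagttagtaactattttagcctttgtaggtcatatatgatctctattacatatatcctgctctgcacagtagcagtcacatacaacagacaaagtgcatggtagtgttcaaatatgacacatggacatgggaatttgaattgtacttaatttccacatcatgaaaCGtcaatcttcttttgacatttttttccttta
Afp intron 3, chr5:90923597-90923896: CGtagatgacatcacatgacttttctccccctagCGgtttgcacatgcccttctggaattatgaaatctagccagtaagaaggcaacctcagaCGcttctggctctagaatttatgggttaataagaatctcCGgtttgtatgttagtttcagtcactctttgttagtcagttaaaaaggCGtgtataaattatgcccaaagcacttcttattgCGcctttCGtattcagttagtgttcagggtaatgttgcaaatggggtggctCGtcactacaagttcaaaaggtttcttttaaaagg

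The largest strain difference of the cluster was in Gc intron 1 (chr5:89876001-89876500, 10.5 kb from the start). Methylation there was 22.3, 21.2 and 32.3% in the 3 B6 sires and 20.8, 21.2 and 21.1% in the B6 dams. It was 55.4, 62.0 and 50% in the C3 sires and 57.4, 61.5 and 69.4% in the C3 dams. Every C3 parent was above every B6 parent. The means were 23.1% ± 4.5 in B6 and 59.3% ± 6.6 in C3 (n = 6 each), a difference of -36.2 points (log2 ratio -2.24 ± 0.18 SE, adjusted p = 2.56e-10). All 3 CpGs took part, at 15.5, 15.9, 61.7 and 60.7% in B6 sires, B6 dams, C3 sires and C3 dams at 89876333, at 45.4, 34.0, 76.5 and 88.5% at 89876214, and at 8.11, 11.1, 31.1 and 34.1% at 89876069. This window is the end, on the far side from the start, of the 15 kb of low methylation around the Gc start, so that in C3 the low stretch ended sooner. The neighboring window, at exon 2 (chr5:89875501-89876000), went the same way at 65.6% in B6 and 85.2% in C3 (adjusted p = 0.000126), and so did one in intron 3 (chr5:89873501-89874000) at 53.0% and 70.4% (adjusted p = 0.000804). The strains differ in the window by C89876151G (B6 base, mm9 position, C3 base), 63 bp from the nearest listed CpG.

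In all 12 F1 animals the Gc intron 1 window lay between the means of the parental strains. It was 38.2, 42.3 and 43.0% in B6C3F1 sons, 50, 35.0 and 41.5% in B6C3F1 daughters, 40.9, 41.0 and 32.6% in C3B6F1 sons and 41.4, 39.1 and 40.7% in C3B6F1 daughters. The F1 mean of 40.5% ± 4.3 was close to the mean of the parental means, 41.2%, and the 2 crosses were at 41.7% and 39.3%.

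The window at Gc exon 10 (chr5:89864001-89864500) ran the other way. B6 sires were at 83.5, 77.8 and 83.8% and B6 dams at 78.3, 83.3 and 92.2%. C3 sires were at 44.7, 46.4 and 45.8% and C3 dams at 63.9, 54.3 and 67.2%. B6 and C3 did not overlap, at 83.1% ± 5.2 and 53.7% ± 9.8, a difference of 29.4 points (log2 ratio 2.08 ± 0.22 SE, adjusted p = 6.60e-08). It lies just past the stretch of Gc without listed CpGs and holds no listed SNV, the nearest listed being 1218 bp away. The stretch beside it holds 0 listed SNVs as well, and the list gives single-base differences only. Whether the strains have the same sequence there was not tested. The 12 F1 animals were between the parental means, from 62.3 to 77.3%.

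In Afp intron 3 (chr5:90923501-90924000, 4.0 kb from the start) the values were 69.6, 76.7 and 73.4% in B6 sires, 76.1, 77.4 and 74.4% in B6 dams, 50, 37.8 and 50% in C3 sires and 53.4, 55.3 and 53.2% in C3 dams. Here too the strains did not overlap, and the difference was 24.7 points (74.6% ± 2.9 and 49.9% ± 6.3, adjusted p = 6.43e-08). The 9 CpGs of the window did not share it evenly. At 90923690 B6 sires and dams were at 69.0 and 78.6% and C3 sires and dams at 21.6 and 28.6%, while at 90923811 they were at 94.9, 88.8, 79.7 and 85.7%. The window carries the substitutions A90923547T, T90923572A and C90923609T, the last 12 bp from a listed CpG. The F1 mean was 63.1% ± 4.5 with all 12 animals inside the parental means.

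Toward the start of Afp, the 2 windows of exon 2 and intron 2 were higher in B6 as well. In the exon 2 window (chr5:90920501-90921000) B6 was at 29.8% ± 3.5 and C3 at 15.5% ± 3.3 (14.3 points, adjusted p = 0.000387), and in the next (chr5:90921001-90921500) they were at 39.9% ± 3.7 and 22.2% ± 9.3 (17.7 points, adjusted p = 0.000155). Depth in the exon 2 window was 31.7 reads per CpG in B6 parents and 16.1 in C3 parents. Downstream the sign turned, with exon 4 (chr5:90924501-90925000) at 74.2% in B6 and 82.6% in C3 (adjusted p = 0.0304), exon 5 (chr5:90926001-90926500) at 77.0% and 84.6% (0.0239) and the low intron 7 window at 7.36% and 13.6% (0.0161). These last 3 calls were lost, with the same sign, when single parents were left out. That of exon 4 was lost without any of 8 of the 12 parents (adjusted p up to 0.111, without C3 dam 2) and with a pseudocount of 5 reads (0.142), that of exon 5 without B6 dam 2 (0.0774), B6 sire 1 (0.0648), C3 dam 1 (0.0654) or C3 sire 2 (0.0955), and that of intron 7 without B6 dam 2 (0.0649) or B6 sire 3 (0.0612). Over the whole body Afp was lower in B6 by 1.98 points (67.8% ± 1.0 against 69.8% ± 1.5, adjusted p = 0.0162).

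In Afm, 4 windows in a row within intron 8 (chr5:90970001-90972000) were higher in B6 by 15.9 to 18.5 points. B6 parents were at 93.0% ± 1.9 and C3 parents at 74.5% ± 4.6 in the first of them (adjusted p = 3.77e-06), and at 80.9% ± 1.2 and 63.6% ± 2.9 in the last (6.91e-05). The stretch is a tandem repeat with a period of 214 bp, whose copies match at 89.5% of bases, and reads from such copies cannot be placed with certainty. Its 103 listed CpGs had 2.29 to 6.47 reads per CpG in an animal, against 15.5 to 27.7 over the regions as a whole. F1 animals lay near B6 in these windows, with means of 77.1 to 92.4%. Whether the strains differ in the number of copies was not tested. Apart from the repeat, the windows at exon 2 (chr5:90950501-90951000, 60.8% and 48.9%, adjusted p = 0.0156) and intron 3 (chr5:90951501-90952000, 57.7% and 47.9%, 0.0118) and the window beyond the gene at chr5:90992001-90992500 (47.1% and 36.1%, 0.00662) were higher in B6, and the first of these lost its call without B6 sire 1 (0.0639) or without C3 sire 3 (0.0571). The Afm body was higher in B6 by 1.25 points (77.5% ± 0.51 against 76.3% ± 1.2, adjusted p = 0.0274), a call lost in 5 of the 12 fits that left out a parent, namely B6 dam 1 (0.0524), B6 dam 3 (0.0615), B6 sire 2 (0.0656), C3 dam 1 (0.0801) and C3 sire 1 (0.0798). Among all gene bodies, 41.0% differed between the strains.

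**Figure D2:**
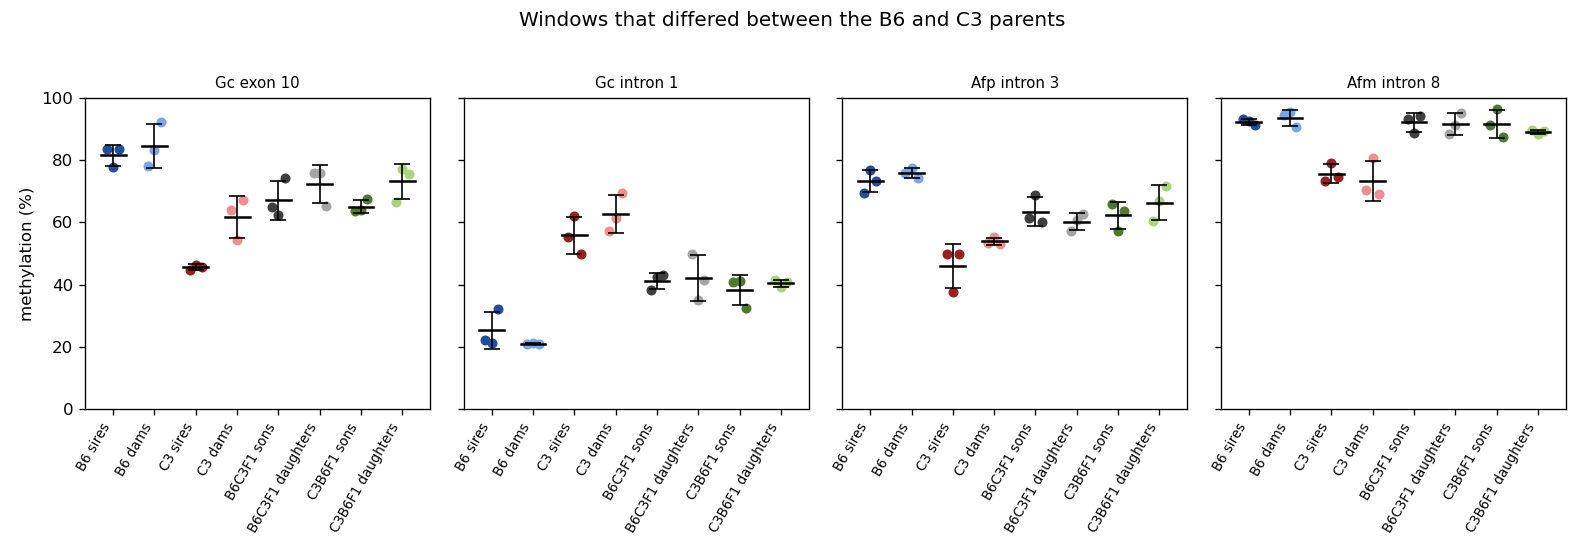
Percent methylation (y axis) of the 3 called windows and of the first repeat window of Afm intron 8, by group (x axis); points are animals, and lines show the mean and SD of 3. In Gc intron 1 the C3 parents lie above the B6 parents, in Gc exon 10 and Afp intron 3 below them, and the F1 animals lie between the means of the strains; in Afm intron 8 they lie near B6.

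Of the 24 windows, 11 held an SNV (45.8%), as did 50 of the other 175 (28.6%). The median depth of the 24 was 26.5 reads per CpG in B6 parents and 19.5 in C3 parents, against 26.1 and 23.1 in the other 175. A level between 20 and 80% was found in 17 of the 24 (70.8%) and in 88 of the other 175 (50.3%). The parts of depth and of level in the number of strain calls were not tested. Among the 15 windows with a difference of at least 10 points the F1 mean lay between the parental means in every case. These windows were picked for a wide parental gap, which favors such a place, and no share over all windows was computed. All 12 F1 animals lay between the parental means at 89864001, 89876001 and 90923501. At 90944501 and 90945001 it was 6 of 12, and in the others 7 to 11. The F1 mean at 90945001 was 63.7%, with B6 at 64.8% and C3 at 51.4%. At 90920501 it was 19.7%, with B6 at 29.8% and C3 at 15.5%. Per CpG, a beta-binomial Wald test at p below 1e-05 called 20 of 1231 CpGs in the regions (1.62%, against 0.405% on chromosome 5), and these made 0 DMRs of at least 5 CpGs. They included 89875915, 89876069, 89876214 and 89876333 in Gc and 90923690, 90923729 and 90923777 in Afp.

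Dams and sires differed at 7 of 199 windows at an adjusted p below 0.05 (3.52%), where 0.789% of all windows did. Of these, 3 were neighbors in Gc intron 11 and higher in dams. Lower in dams were 1 in Alb intron 7 and 3 between Afp and Afm. Over all windows, 0.425% were called as higher in dams. With 20 points required, 1 window in Gc remained (0.503%, against 0.110% of all). Stretches of the windows that the comparison of the sexes turns on are shown on the plus strand with the listed CpGs in capitals. The stretches do not reach 89852958 in Gc intron 11 or 90896914 in Alb intron 7. These CpGs were called by the Wald test, at 34.55 and -29.18 points (dams minus sires). The capitals shown for their windows are therefore not the called CpGs.
Gc intron 11, chr5:89852036-89852335: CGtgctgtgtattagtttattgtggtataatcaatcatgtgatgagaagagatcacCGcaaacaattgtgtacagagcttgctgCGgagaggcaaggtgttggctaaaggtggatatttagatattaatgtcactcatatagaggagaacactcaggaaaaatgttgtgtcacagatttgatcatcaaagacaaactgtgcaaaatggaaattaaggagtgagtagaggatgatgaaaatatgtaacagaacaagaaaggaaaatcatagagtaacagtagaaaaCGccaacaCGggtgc
Gc intron 11, chr5:89852579-89852878: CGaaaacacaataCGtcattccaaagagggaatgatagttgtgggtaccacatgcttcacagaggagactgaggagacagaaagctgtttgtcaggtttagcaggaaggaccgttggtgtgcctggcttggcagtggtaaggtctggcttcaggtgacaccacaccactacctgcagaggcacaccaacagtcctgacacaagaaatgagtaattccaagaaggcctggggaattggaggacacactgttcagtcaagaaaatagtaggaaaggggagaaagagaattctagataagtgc
Alb intron 7, chr5:90896532-90896831: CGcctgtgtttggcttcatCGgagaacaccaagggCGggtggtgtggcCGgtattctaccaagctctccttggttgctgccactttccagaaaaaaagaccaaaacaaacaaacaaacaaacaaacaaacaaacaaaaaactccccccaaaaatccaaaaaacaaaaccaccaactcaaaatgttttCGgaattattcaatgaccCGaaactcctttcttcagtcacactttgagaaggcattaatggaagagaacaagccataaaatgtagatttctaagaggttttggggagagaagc

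The called window was at the 3′ side of Gc (chr5:89852501-89853000, 34 kb from the start). B6 dams were at 74.6, 73.0 and 76.9% and C3 dams at 82.5, 87.2 and 75.9%. B6 sires were at 55.1, 60.0 and 56.9% and C3 sires at 52.9, 58.2 and 60.3%. All 6 dams exceeded all 6 sires, by 21.1 points on average (78.4% ± 5.4 and 57.2% ± 2.9, log2 ratio 1.41 ± 0.21 SE, adjusted p = 0.000150). The difference of the window was 19.8 points without C3 dam 2, and so under the 20 points asked for. In the window before it (chr5:89852001-89852500, 8 CpGs) dams were at 71.1% ± 4.4 and sires at 55.1% ± 3.5 (16 points, adjusted p = 0.000133), and in the one before that (chr5:89851501-89852000, 3 CpGs) at 37.3% ± 8.0 and 17.5% ± 3.3 (19.8 points, adjusted p = 3.75e-05), again with no overlap. This last window is a low island in an otherwise methylated part of Gc.

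The F1 animals showed the same direction in Gc intron 11. In the middle window F1 daughters were at 69.8, 70.6 and 63.3% (B6C3F1) and 67.7, 70.0 and 70.9% (C3B6F1), and F1 sons at 50.7, 57.9 and 49.1% (B6C3F1) and 59.8, 64.1 and 51.7% (C3B6F1). The lowest daughter was below the highest son, and the mean difference was 13.2 points (adjusted p = 0.00536). This was 1 of 2 windows of the 199 that differed between F1 daughters and sons (1.01%, against 0.288% of all), both higher in daughters (0.254% of all). The other was the window at Gc exon 11 (chr5:89855001-89855500), at 75.8% ± 4.9 in daughters and 62.6% ± 4.3 in sons (adjusted p = 0.0375), with no overlap, and its call was lost in 10 of the 12 fits that left out an F1 animal (adjusted p up to 0.168, without C3B6F1 son 3), with windows of 2 CpGs included (0.0588) and with the replicate number as a block (0.0567). With 20 points required there were 0 windows (0.0571% of all), and 23 had an unadjusted p below 0.05 (11.6%, against 6.78% of all). At chr5:89852501-89853000 the difference in F1 animals was smaller than in the parents (unadjusted p = 0.0124 for the difference between them, adjusted p = 0.604), which did not pass the test. This limma contrast was added after the data were seen, and the window was picked for its parental difference. The unadjusted p is therefore no support for a smaller difference in F1 animals. By the Wald test per CpG, 6 of 1246 CpGs differed between dams and sires (0.482%, against 0.119% of chromosome 5), of which 5 were in Gc intron 11, and 1 of 1237, at 89852120 in the same intron, between F1 daughters and sons (0.0808%, against 0.0596%).

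**Figure D3:**
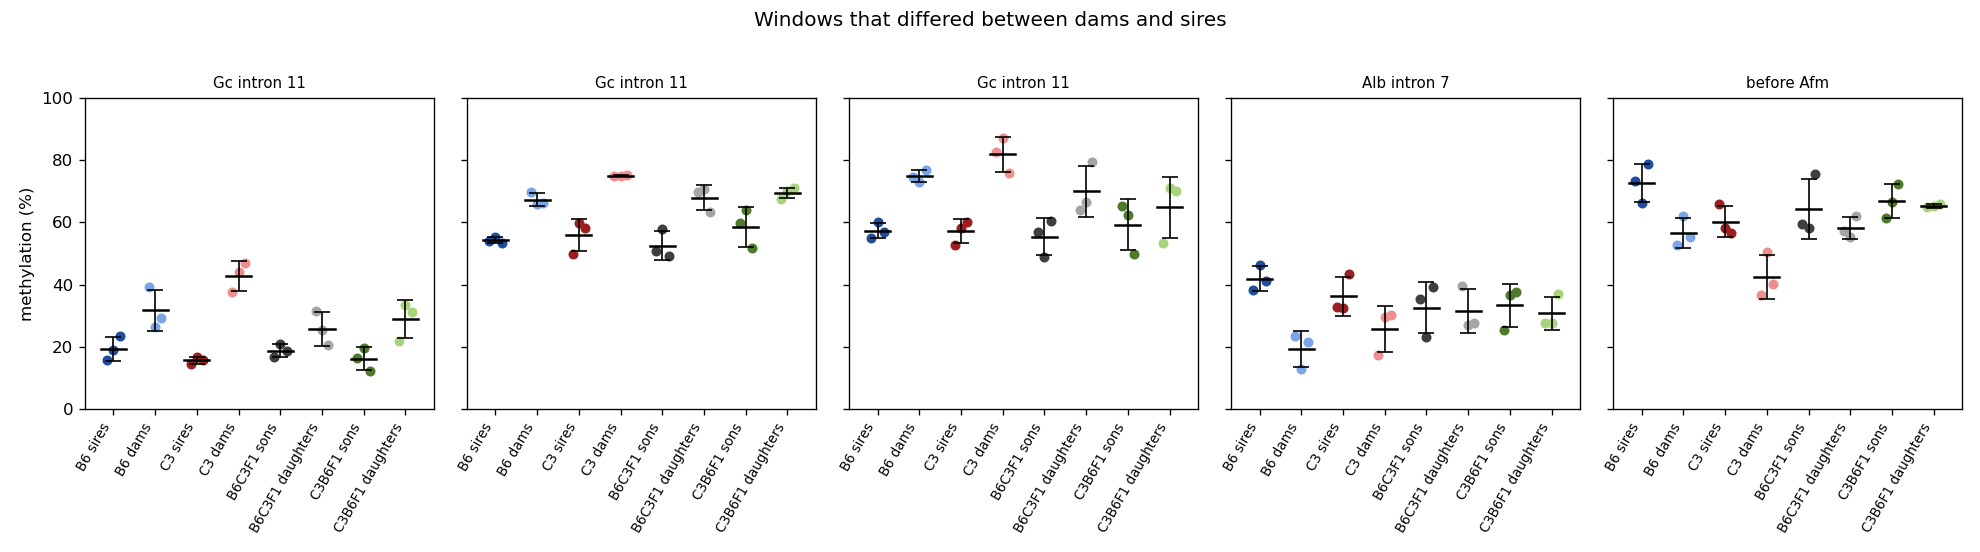
Percent methylation (y axis) of 5 windows that differed between dams and sires, by group (x axis); points are animals, and lines show the mean and SD of 3. The 3 panels of Gc intron 11 run from chr5:89851501 to chr5:89853000. Dams lie above sires in Gc intron 11 and below them in Alb intron 7, where F1 daughters and sons overlap.

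Alb differed between dams and sires in the opposite direction. In its intron 7 window (chr5:90896501-90897000, 6.8 kb from the start, 7 CpGs and no SNV within 12 kb) B6 dams were at 23.5, 12.7 and 21.6% and C3 dams at 17.3, 29.6 and 30.2%. B6 sires were at 38.3, 46.2 and 41.2% and C3 sires at 32.8, 32.5 and 43.3%. All dams were below all sires, by 16.6 points (22.5% ± 6.8 and 39.1% ± 5.6, adjusted p = 0.00711). The F1 groups overlapped, with means of 31.5 and 30.8% in daughters and 32.6 and 33.3% in sons, and the test of parental against F1 difference gave an unadjusted p = 0.00345 (adjusted p = 0.513). This window too was picked for its values, so the unadjusted p is given as a description. The whole Alb body went the same way. It was at 35.3, 36.3 and 42.4% in B6 sires, 31.1, 31.3 and 38.1% in C3 sires, 26.8, 28.6 and 30.2% in B6 dams and 26.8, 32.8 and 34.4% in C3 dams. Sires and dams overlapped in C3, and the difference of -5.81 points had an adjusted p = 0.0468, where 17.3% of all gene bodies were called. That call was lost in 8 of the 12 fits that left out a parent, with adjusted p up to 0.130 without C3 dam 1, and in 7 of the 12 that left out an F1 animal. Of the 22 tested windows inside Alb, 21 were lower in dams, with a median difference of -6.12 points, while the median over all gene bodies, each taken whole and not by window, was -0.29. In 18 of the 22 the dam-sire difference was more negative in B6 than in C3. The median of this contrast was -6.88 points, and it passed the limma test at none of them. Windows of the same gene in the same animals are not independent. Over all autosomal CpGs, B6 dams were at 75.73% or less and B6 sires at 76.56% or more. C3 dams were at 76.28 to 77.13% and C3 sires at 76.95 to 77.29%. The counts of 21 and 18 windows were not compared with other genes. The part of the genome-wide level in them was not tested. Between F1 daughters and sons the same 22 windows had a median of -0.39 points, with 12 lower in daughters. Gene bodies of markers of other liver cells were also called lower in dams, at 3 of 4 Kupffer cell genes (median of the list -1.48 points), 2 of 5 leukocyte genes (-0.97) and 1 of 5 endothelial genes (-0.41), with 0 of 4 stellate and 0 of 4 bile duct genes. Of 10 hepatocyte marker bodies, 3 were called higher and 1 lower in dams, with a median of -1.12 points. The part of these lists in the difference at Alb was not tested.

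The 3 windows between Afp and Afm were at 61.3% in dams and 74.5% in sires (chr5:90941001-90941500, adjusted p = 0.0145), 33.2% and 46.5% (chr5:90944501-90945000, 0.0278), and 49.6% and 66.5% (chr5:90945001-90945500, 0.00365). The second was also higher in B6 than in C3 (45.4% and 34.3%, adjusted p below 0.05), a call lost in 6 of the 12 fits that left out a parent. So was the last, 2.7 kb before the Afm start (64.8% and 51.4%, adjusted p = 0.00905). B6 sires were highest there at 73.3, 66.4 and 78.6% and C3 dams lowest at 36.6, 50.4 and 40.3%. Between dams and sires, the first window lost its call without B6 dam 2 (0.0509), B6 sire 3 (0.0579), C3 dam 1 (0.0616) or C3 dam 2 (0.0550). The second lost its dam-sire call without B6 dams 2 (0.0741) or 3 (0.0859), B6 sires 2 (0.0676) or 3 (0.0896), C3 dam 3 (0.108) or C3 sire 2 (0.0832). In the 10 kb before Afm as a whole the groups ran from 53.6% ± 2.3 in C3 dams to 69.2% ± 0.7 in B6 sires, with all F1 groups between 59.5 and 63.8%.

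**Figure D4:**
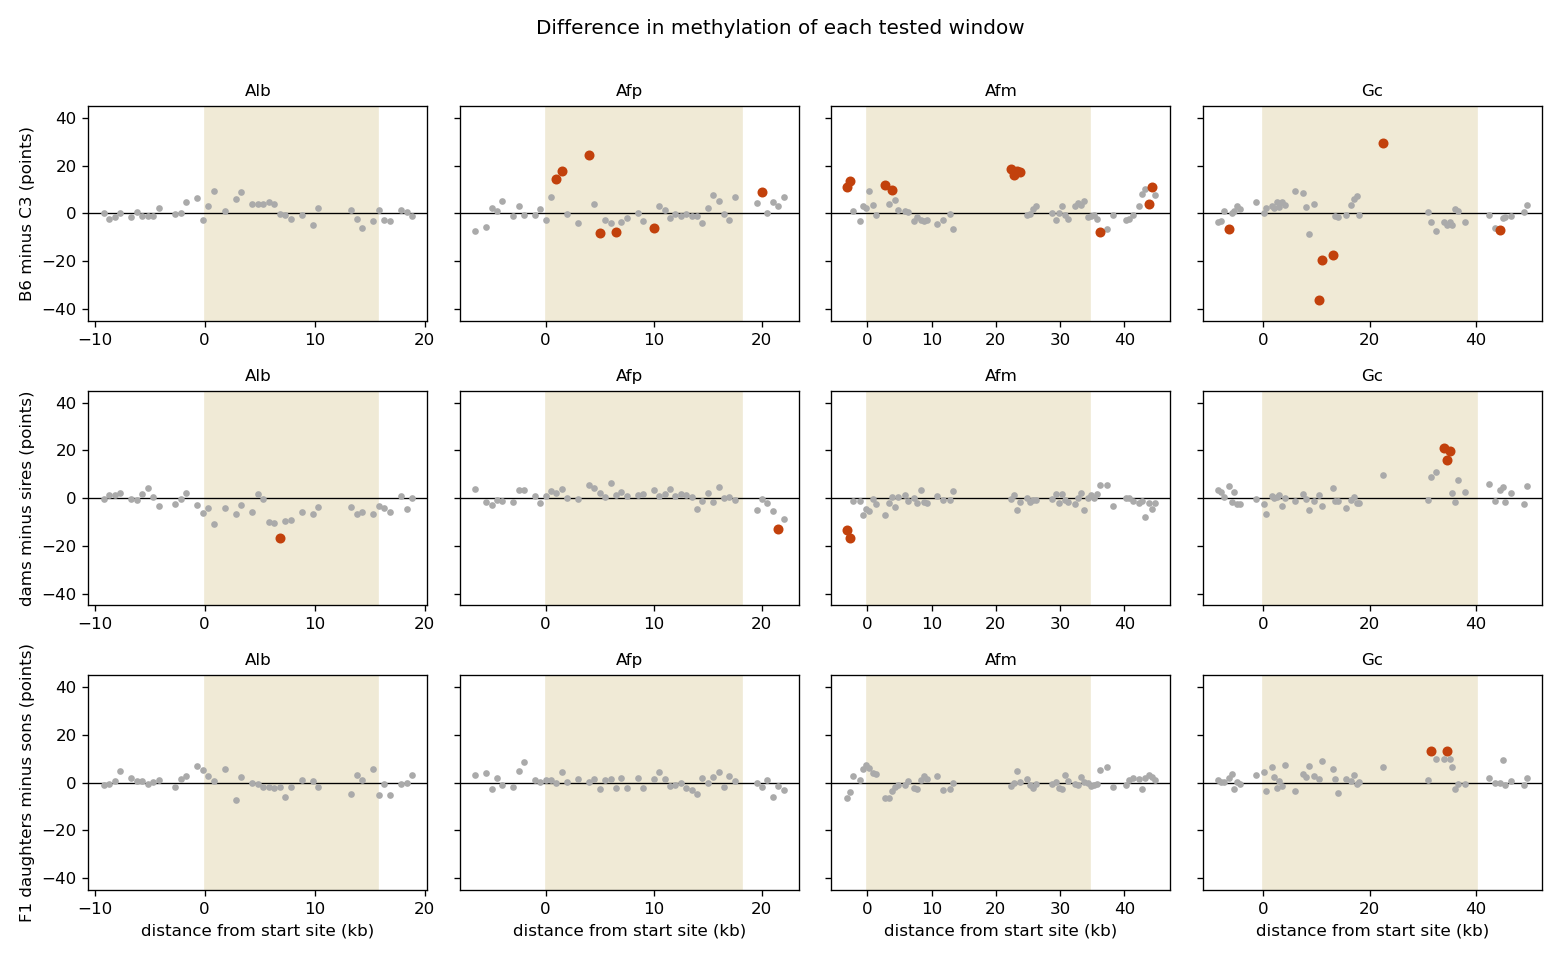
Difference in percentage points (y axis) of each tested window of the cluster, B6 minus C3 parents, dams minus sires and F1 daughters minus sons, by kb from the start site of each gene (x axis); shading marks the gene and large red points have an adjusted p below 0.05. Red points are scattered over Gc, Afp and Afm in the strain comparison; between dams and sires they lie at the 3′ side of Gc, in Alb and between Afp and Afm, and between F1 daughters and sons at the 3′ side of Gc.

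Dams and virgin F1 daughters differed at 0 of 199 windows (limma; 0.103% of all windows were called), where 25 had an unadjusted p below 0.05 (12.6%, against 7.45% of all), and the Wald test called 0 CpGs (0.0175% of chromosome 5). The largest difference was again 2.7 kb before the Afm start (chr5:90945001-90945500), with dams at 49.6% ± 9.6 and daughters at 61.7% ± 4.5 (-12.2 points, adjusted p = 0.259). The Gc promoter was at 13.8% ± 2.9 in dams and 20.7% ± 4.1 in daughters, a difference of -6.88 points that did not pass over all promoters (unadjusted p = 0.000518, adjusted p = 0.154, 0.141% of promoters called). It was also higher in F1 sons (19.6% ± 3.3) than in sires (17.2% ± 2.2). Over both sexes F1 animals were at 20.2% ± 3.6 and parents at 15.5% ± 3.0 (limma, unadjusted p = 0.00102, adjusted p = 0.195). The Afp body was higher in dams by 3.24 points (69.4% ± 1.9 and 66.2% ± 1.3, adjusted p = 0.00929, 4.76% of bodies called).

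F1 animals and parents differed at 0 of 199 windows (0.0662% of all called), where 27 had an unadjusted p below 0.05 (13.6%, against 6.68% of all). The largest difference was in the Afm repeat (chr5:90970001-90970500), at 91.2% ± 3.0 in F1 animals and 83.8% ± 10.2 in parents (adjusted p = 0.236). The Afp body was lower in F1 animals by 2.72 points (66.0% ± 1.2 and 68.8% ± 1.6, n = 12 each, adjusted p = 0.00907), while 0.368% of all bodies were called. Its groups ran from 65.1% ± 0.7 in C3B6F1 sons to 71% ± 0.5 in C3 dams, and all 4 F1 groups were below all 4 parental groups. B6C3F1 and C3B6F1 animals differed at 0 of 199 windows (0.000659% of all), with 13 at an unadjusted p below 0.05 (6.53%, against 6.26% of all), and the largest difference was in the start-site window of Afm, where B6C3F1 sons were at 14.1, 11.1 and 10.6% and C3B6F1 sons at 34.4, 32.2 and 12.1% (17.1% ± 8.8 and 28.5% ± 9.3 over both sexes, adjusted p = 0.684). The dam-sire difference did not differ between B6 and C3 at any window by this test (0 of 199, 0.000736% of all), with 16 at an unadjusted p below 0.05 (8.04%, against 5.31% of all). The window at Alb exon 2 (chr5:90890501-90891000) had the largest such contrast, with B6 sires at 47.8% ± 8.4 and the other 3 parental groups between 27.3 and 28.7% (adjusted p = 0.945). The added test of the parental against the F1 sex difference called 0 of 199 windows (0.0236% of all), with 14 at an unadjusted p below 0.05 (7.04%, against 7.03% of all).

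The promoters of the 4 genes passed in none of the 28 tests of 4 genes in 7 comparisons. Their bodies passed in 5, namely Afp in 3, Afm in 1 and Alb in 1, with the values given above. Among all promoters, 12.1% were called between the strains, 0.525% between dams and sires, 0.233% between F1 daughters and sons, 0.238% between F1 animals and parents, 0.0146% between the crosses and 0.00972% for the dam-sire difference of B6 against that of C3. The last 2 comparisons and that of F1 daughters with sons called 0.0252%, 0.0151% and 1.51% of all gene bodies.

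Other genes of the same biology give the setting of these levels. The promoters of 23 plasma protein genes of the liver, among them transthyretin (Ttr) and the fibrinogen chains, had a median of 20.4%, with 21 below 50%, between those of Gc and Alb. Between the strains 7 of the 23 were called, all higher in B6, with a median difference of 3.71 points where the median of all promoters was -0.30. Of all promoters, 12.1% were called between the strains, counting both directions. None of the 23 was called between dams and sires or between daughters and sons. Of their gene bodies, 5 were called higher and 8 lower in B6, and 1 higher and 4 lower in dams, where 41.0% and 17.3% of all bodies were called in these comparisons. Promoters of 13 regulators of the family, such as Foxa2 and Zhx2, were low (median 3.31%, all below 50%), and 0 of 13 were called in these comparisons. Of their bodies, 1 was called higher and 4 lower in B6, 2 higher in dams than sires and 2 higher in F1 daughters than sons. Among all bodies these comparisons called 41.0%, 17.3% and 1.51%. Promoters of fetal liver genes, the class to which Afp belongs, were at a median of 6.85% (6 tested, 5 below 50%), and differed widely. Igf2, a fetal growth factor, had a promoter at 86.8% (16 CpGs), near the 84.4% of Afp (20 CpGs), while the other 5 had 29 to 121 CpGs and lay between 1.83 and 10.5%. Each promoter was taken at the start of the longest protein-coding transcript only, and the Igf2 body was at 23.1% (470 CpGs). Promoters of genes that handle albumin or vitamin D, such as Fcgrt, Lrp2 and Cyp27b1, were at a median of 5.42% (8 tested, 7 below 50%). The 17 other genes within 500 kb of a member had a median promoter level of 8.87%. Hepatocyte marker promoters were at a median of 28.9% (9 of 10 below 50%), those of Kupffer cells at 82.3% (0 of 4), endothelium at 70.8% (0 of 5), leukocytes at 85.6% (0 of 5), stellate cells at 19.7% (3 of 4) and bile duct at 26.4% (4 of 4). Between the strains, 2 of 10 hepatocyte promoters were called, both higher in B6, and 1 of 4 stellate promoters, lower in B6, with 0 of the 18 others, where 12.1% of all promoters were called. Of the marker gene bodies, 4 of 5 endothelial, 2 of 4 Kupffer cell, 2 of 5 leukocyte, 2 of 4 stellate and 2 of 10 hepatocyte genes were called lower in B6, and 1 hepatocyte and 1 bile duct gene higher, where 41.0% of all bodies were called. The part of these lists in the strain differences of the cluster was not tested. Between dams and sires 0 marker promoters were called, and the marker bodies are given above with Alb.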

How the data were processed

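The authors deposited, for each CpG and animal, a count of methylated and one of unmethylated reads, summed over the strands. Per the paper's methods and the submitters' processing notes, reads (CASAVA 1.8.2) were filtered for base quality, aligned with Bismark 0.7.8 and Bowtie 0.12.8 to mm9 with phage lambda, deduplicated per library, clipped and merged by animal (Picard 1.110). CpGs were kept where mm9 and both strains have the dinucleotide, so CpGs that differ between the strains are missing from every level. The deposited SNV list gives the base of each strain. All columns of both tables were used (0 left out), and the ChIP samples for FOXA1 were left out. The methylation level is the share of methylated reads, and depth limits its precision. Totals were 365740739 to 619888157 counts per animal.

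Counts were summed in 500-bp windows, promoters and gene bodies (GENCODE, mm9). limma 3.58.1 in R 4.3.3 was fitted to log2((methylated + 1)/(unmethylated + 1)) with 8 group means over the 24 animals and trended, robust variances, and p-values were adjusted over all windows, promoters or bodies. A window was called at an adjusted p below 0.05 and 20 points. This model was tested on simulated data for B6 against C3 parents (168982 windows), where it called 91 of 100 windows changed by 20 points at an adjusted p below 0.05 and 44 of them with 20 points as well, and 100 of 100 changed by 40 points. The simulated spread between animals was fixed, not taken from the data, and only windows of middle to high methylation were changed. These shares may not hold for the low windows of the cluster. The study used DSS and Metilene. Metilene was not run, and for DSS a Wald test per CpG on chromosome 5 stood in. Windows named were the called ones, those at a start site, the lowest of each gene and the largest difference of each comparison without a call. Windows at an adjusted p below 0.05 alone were described beyond this rule, after their values were seen. The members, lists and rules were chosen with earlier results of these data known, and the comparison of parental with F1 sex differences after the data were seen. 1 fixed motif is not reported here. Replicates are 3 animals a group. Alternatives were another pseudocount, scale, read and CpG minimum, threshold, window offset, promoter width, CpG weighting, a replicate block and leaving out each animal. H19 and Vsig4 had no value among autosomal protein-coding genes here.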

Additional observations from a re-analysis of the deposited data

How the results depend on the processing

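No result reversed under any alternative run. Of 33 calls at an adjusted p below 0.05, made at 30 windows, 20 kept it in every fit of the same window that was run and 13 lost it in at least 1. Only 10 of the 33 could be tested with 100 reads and 21 with 5 CpGs, and shifted windows have no counterpart. The strain windows called with 20 points numbered 3 as reported, 1 with 100 reads, 1 with 5 CpGs, 5 with windows shifted by 250 bp, 15 with 10 points and 0 as DMRs of the Wald test. Those at adjusted p alone went from 24 to 9 with 100 reads. For dams against sires the called count of 1 became 0 with 100 reads, 0 with 5 CpGs, 0 DMRs and 7 with 10 points, and ranged from 0 to 2 when single animals were left out. Its 7 windows at adjusted p alone became 2 with 100 reads and 4 with 5 CpGs, and 5 to 8 without single animals. For F1 daughters against sons the count of 0 became 2 with 10 points, and the 2 windows at adjusted p alone became 1 with 100 reads, 1 with 2 CpGs, 1 with the replicate block and 3 with windows shifted, and 1 to 2 without single animals. The 5 called gene bodies ranged from 3 to 5 without single animals, with 3 without B6 dam 1, B6 dam 3 or C3 dam 1. The Afm minus Alb promoter difference was 0.386 points (permutation p = 0.743) by the mean of CpG percentages, where the other steps of the order kept p below 0.05. Fewer windows could be tested with 100 reads (55 of 199) and with 5 CpGs (111), and the called windows of Gc hold 3 CpGs each, so depth and CpG number limit these counts.

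Replicate numbers were not taken as pairs. Deviations from the group means correlated at -0.0085 to 0.062 between animals of the same number, under 0.1, and at -0.032 to 0.013 otherwise, though 21 of 24 animals correlated best with their own number. Only 84 pairs of animals from different groups shared a number, against 168 that did not. These low correlations do not show that animals of the same number are unrelated, and what such animals share was not tested. The fit with the replicate block called 3 strain windows and 1 dam-sire window with 20 points. At adjusted p alone it called 1 in place of 2 windows between F1 daughters and sons, the lost window being that at Gc exon 11 (adjusted p = 0.0567).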
